A study of Mus musculus with 15 samples.

Results

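The genes described here are 38 genes of DNA replication, chosen by symbol and found in the count tables through their Entrez IDs. All 38 were present among the 36528 gene IDs listed for each library, and all 38 passed the filter on low counts, with 217 to 12892 counts per gene and library. Sorted by what their products do, they comprise 4 genes of origin licensing, the 6 genes of the MCM helicase, 6 genes of helicase activation, 7 genes of polymerases and primase, 6 genes of the sliding clamp and its loader, 3 genes of nucleotide supply, 2 genes of Okazaki fragment processing and 4 genes of chromatin assembly and the fork.

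A cell licenses its replication origins before S phase: the origin recognition complex, Cdc6 and Cdt1 load the ring of Mcm2 to Mcm7 onto DNA, and Cdc45, GINS and Mcm10 turn that ring into a working helicase. Polymerase alpha with primase then starts each strand, polymerases epsilon and delta extend it on the Pcna clamp, Fen1 and Lig1 join the Okazaki fragments, and chromatin is rebuilt behind the fork. Most of these genes are transcribed around the G1/S boundary under E2F factors, and in the developing gut dividing cells lie in the intervillus epithelium and in the mesenchyme.

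RNA came from mouse intestine, labelled as small intestine, at E16.5, the embryonic day, and was sequenced as polyA libraries. Of 15 libraries, 5 were from C362A embryos, which carried a Casp8 knockin in which the active-site cysteine is replaced (C362A), 5 from Casp8 knockout embryos and 5 from embryos with wildtype Casp8. All 15 also lacked Mlkl, the executioner of necroptosis, so no group here is an unmodified mouse, and the groups are called C362A, knockout and wildtype. The labels name neither litter, sex nor preparation batch, and they do not say that libraries came from separate animals, so p-values measure only the spread between these libraries.

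Library totals lay between 31896399 and 38532127 counts, and the 38 genes together held between 0.191% and 0.370% of the counts of a library. Levels between libraries are counts scaled to a common library size with TMM factors (CPM), and fold changes, standard errors (SE) and Benjamini-Hochberg adjusted p-values over 18370 genes come from edgeR's quasi-likelihood test. Casp8 averaged 69.9 ± 3.41 CPM in C362A and 14.4 ± 1.65 CPM in knockout, against 70.1 ± 5.97 CPM in wildtype (SD, n = 5 each), and Mlkl stayed under 1 CPM in every library. The labelled tissue showed its markers: Vil1, the brush border villin, averaged 616 ± 70.3 CPM in C362A and 770.4 ± 25.8 CPM in knockout, against 743 ± 156 CPM in wildtype. Cdx2, the intestinal transcription factor, averaged 259.5 ± 12.6 CPM in C362A and 257.5 ± 38.1 CPM in knockout, against 273 ± 19.6 CPM in wildtype. In bulk tissue, fewer cells of a type and less RNA per cell cannot be told apart.

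A feature of single libraries has to stand before the results. C362A replicate 5 was the lowest of the 5 C362A libraries for 38 of the 38 genes. C362A replicate 1 was the highest of all 15 libraries for 34, and wildtype replicate 4 was the lowest of all 15 for 21. The same counts were not made over all genes. On the main axis of variation of the most variable genes, C362A replicate 1 lay at -40.2, C362A replicate 5 at 22.1 and wildtype replicate 4 at 24.6. These libraries thus lay toward the ends of that axis, but not alone. C362A replicates 3 and 4 lay at -33.9 and -27.4, and knockout replicate 5 at 20.8. Results are therefore given with and without C362A replicate 5. Because that library was the lowest of its group for every gene, leaving it out raises each C362A mean by construction. Leaving it out also lowers the SE of most of these genes, as in Cdc6 from 0.16 to 0.10. The library was singled out by these same genes, so calls made without it do not count as support for a difference. The sample ID numbers in the labels also fall into 2 runs of consecutive numbers, the first with 2 libraries and the second with 3 libraries of each genotype. C362A replicates 2 and 5 lie in the first run, and C362A replicates 1, 3 and 4 and wildtype replicate 4 in the second. The labels do not say what the runs stand for.

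Promoters are described because letters read by E2F factors recur in them, a feature that played no part in choosing the 38 genes. RefSeq promoters on GRCm38.p6, from 250 bases before to 50 bases after a start, were matched for 30 of the 38. The letters TTTCCCGC, TTTCGCGC, TTTGCCGC or TTTGGCGC, on either strand, occurred in at least 1 promoter of 14 of those 30 genes (46.7%), against 704 of 27025 genes with a promoter in the same table (2.60%) and 552 of the 13356 that were also tested (4.13%). Matches on both strands of the same bases can overlap, as in Mcm6. Of 38 other replication factors with a promoter, 10 held the letters (26.3%), of 19 mitosis genes 1 (5.26%) and of 20 enterocyte genes 0. The letters CCAAT, on either strand, occurred in 19 of the 30 (63.3%), against 41.1% of all genes and 15 of the 19 mitosis genes (78.9%). A match describes the sequence and does not show that a factor binds there.

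In 7 genes the E2F letters reached into the 150 bases before the start. Those 150 bases are given 5′ to 3′ on the strand of the gene, with the letters in capitals. In Mcm5 the first capital belongs to a match that begins before the stretch shown.
Cdc6, chr11:98908001-98908150, GRCm38.p6, plus strand: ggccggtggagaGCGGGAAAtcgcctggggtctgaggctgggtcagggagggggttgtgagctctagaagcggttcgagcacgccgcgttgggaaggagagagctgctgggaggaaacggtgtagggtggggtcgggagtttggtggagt
Gins3, chr8:95633409-95633558, GRCm38.p6, plus strand: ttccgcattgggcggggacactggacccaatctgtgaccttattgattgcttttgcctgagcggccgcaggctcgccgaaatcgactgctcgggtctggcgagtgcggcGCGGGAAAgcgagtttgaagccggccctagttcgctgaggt
Mcm5, chr8:75109359-75109508, GRCm38.p6, plus strand: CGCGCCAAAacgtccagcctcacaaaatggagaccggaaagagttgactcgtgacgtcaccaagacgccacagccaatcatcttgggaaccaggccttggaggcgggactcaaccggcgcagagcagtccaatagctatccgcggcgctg
Mcm6, chr1:128359706-128359855, GRCm38.p6, minus strand: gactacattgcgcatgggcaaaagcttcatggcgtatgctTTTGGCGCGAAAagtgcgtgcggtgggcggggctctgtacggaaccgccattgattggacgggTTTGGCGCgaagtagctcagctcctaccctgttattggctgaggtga
Orc1, chr4:108579304-108579453, GRCm38.p6, plus strand: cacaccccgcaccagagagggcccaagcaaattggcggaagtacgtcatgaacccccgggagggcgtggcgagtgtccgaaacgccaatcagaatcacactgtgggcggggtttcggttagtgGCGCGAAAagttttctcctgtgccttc
Pola1, chrX:93632156-93632305, GRCm38.p6, minus strand: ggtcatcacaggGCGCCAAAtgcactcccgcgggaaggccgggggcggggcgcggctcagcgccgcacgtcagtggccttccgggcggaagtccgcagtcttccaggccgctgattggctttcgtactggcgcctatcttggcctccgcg
Rfc3, chr5:151651209-151651358, GRCm38.p6, minus strand: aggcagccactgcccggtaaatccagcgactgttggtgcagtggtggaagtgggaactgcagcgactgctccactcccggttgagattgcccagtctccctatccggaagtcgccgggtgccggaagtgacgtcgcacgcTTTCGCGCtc
Counted from the start site as 0, the first letter of a match lay at -138 in Cdc6 and in Pola1, -41 in Gins3, -27 in Orc1, -10 in Rfc3 and -149 in Mcm5. Mcm6 carried 3 matches, at -110, -106 and -47, of which the first pair shares letters. The other 7 genes with the letters held them farther upstream or after the start: Mcm3, Mcm7, Lig1, Pold1, Cdt1, Pole2 and Uhrf1.

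Expressed per length of transcript, as the deposited RPKM, the genes spanned a wide range. Mcm6, a subunit of the helicase ring, was the most abundant, at 109.6 ± 21.6 RPKM in C362A, 91.1 ± 7.46 RPKM in knockout and 90.6 ± 12.5 RPKM in wildtype (SD, n = 5 each). Rfc2, Mcm3 and Rrm1 followed in wildtype, with mean levels of 46.1, 45.9 and 43.9 RPKM. The lowest were Pole, Orc1 and Cdc6, with mean wildtype levels of 4.32, 3.11 and 3.09 RPKM. Of the 37 neighbouring pairs in this order, the wildtype gap exceeded the sum of both SDs in 2. These were Mcm6 with Rfc2 and Pcna with Mcm10. In the remaining 35 pairs it did not. Those SDs are taken gene by gene, over libraries in which the genes vary together. They therefore do not show whether the order of a pair holds within each library, which was not tested.

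**Figure D1:**
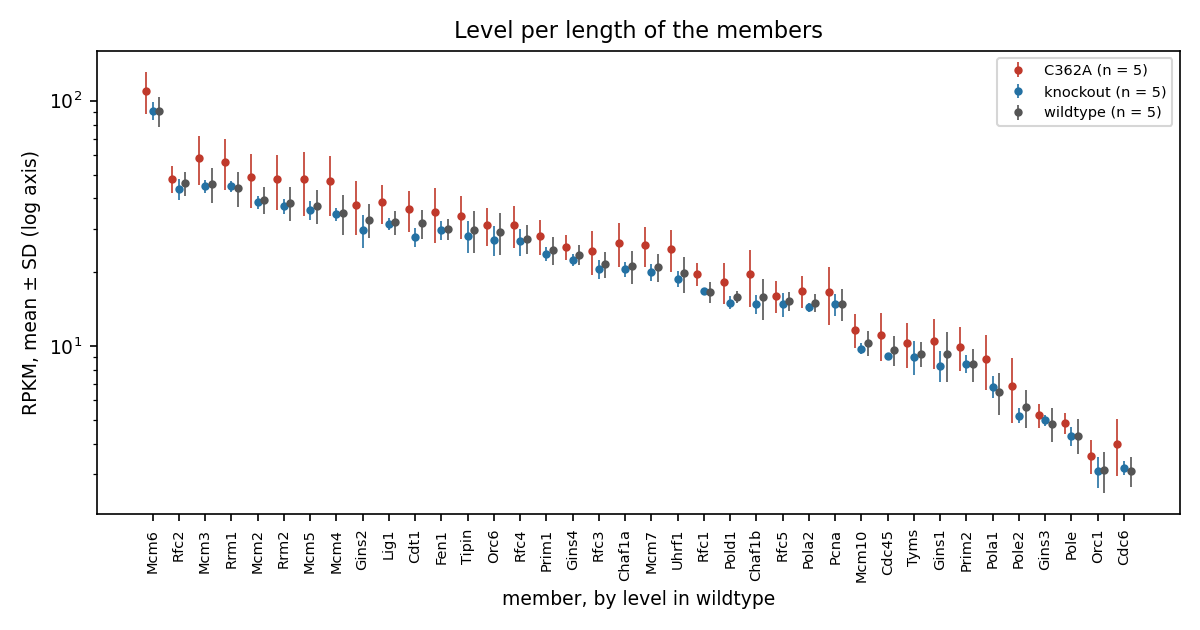
Level per length (RPKM, log axis) of the 38 DNA replication genes, ordered by their wildtype mean, as mean and SD over 5 libraries in C362A, knockout and wildtype. Mcm6 stands at 90.6 RPKM in wildtype, above every other gene, and Cdc6 and Orc1 stand lowest at 3.09 and 3.11 RPKM.

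The share of a subunit in the summed RPKM of its complex also varied between libraries. Pola1 held 10.7% to 15.9% of polymerase alpha-primase over the 15 libraries, and its share averaged 13.8% ± 2.03 in C362A, 12.8% ± 1.07 in knockout and 11.8% ± 1.23 in wildtype (SD, n = 5 each). Mcm6 held 31.2% to 35.7% of the summed RPKM of Mcm2 to Mcm7 over the 15 libraries, and Mcm7 held 7.12% to 8.54%. Within GINS, Gins2 held 42.4% to 51.0% and Gins3 6.05% to 9.11% of the summed RPKM. Within the clamp loader, Rfc2 held 32.3% to 37.6%, and within polymerase alpha-primase, Prim1 held 42.3% to 47.3%. RPKM divides by the length the authors' gene model gives, so such shares carry any error of that length.

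In C362A intestine every one of the 38 genes had a fitted level above that in wildtype, by small amounts. The log2 fold changes ran from 0.06 for Rfc2 to 0.45 for Pola1, with a median of 0.21 beside 0.01 over all genes tested. Of all genes tested, 51.4% had a value above 0. The 38 genes move together between libraries, so 38 of 38 does not count as 38 separate observations. The list was also chosen with earlier results of these data known, so the shares of all genes beside it are a description only. None of them passed: 0 of 38 were called at an adjusted p under 0.05 by edgeR, with adjusted p-values from 0.285 to 0.772, while 0.0817% of all genes were called. At an unadjusted p under 0.05 by edgeR, 12 of 38 were higher, against 8.08% of all genes, and 0 were lower. That count rested on single libraries. It was 1 without wildtype replicate 4 (4.11% of all genes), 3 without wildtype replicate 3 (4.75%) and 20 without wildtype replicate 1 (11.0%). Leaving out C362A libraries gave 2 without replicate 1 (6.35%), 4 without replicate 3 (5.08%), 6 without replicate 4 (4.49%) and 30 without replicate 5 (14.1%), and a fit of the 2 genotypes alone gave 4 (5.7%). Without wildtype replicate 4 or C362A replicate 1 the count was thus below the share of all genes. No gene had its 5 C362A libraries all above the 5 wildtype libraries, which held for 0.86% of all genes.

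**Figure D2:**
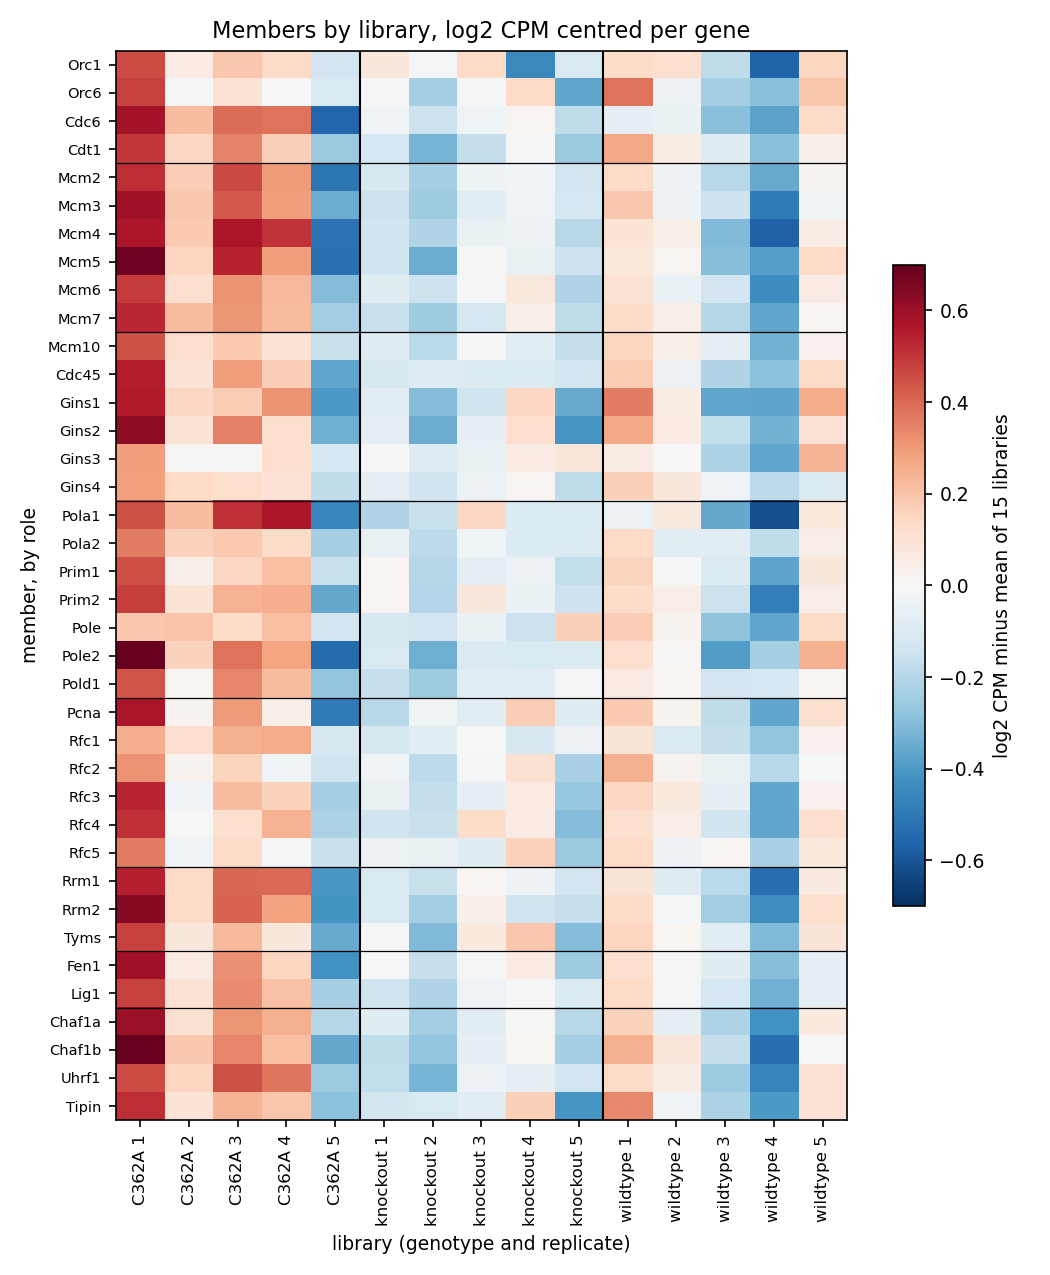
Level of each of the 38 genes (rows, grouped by role) in each of the 15 libraries (columns), as log2 CPM minus that gene's mean over the libraries; values beyond the ends of the colour bar are drawn in the end colour. Nearly the whole C362A replicate 1 column is high, and the C362A replicate 5 and wildtype replicate 4 columns are low from top to bottom.

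Averaged over the 38 genes, the centred log2 CPM was 0.49, 0.11, 0.29, 0.21 and -0.30 in C362A replicates 1 to 5. It was -0.09, -0.20, -0.03, -0.00 and -0.17 in knockout, and 0.15, 0.01, -0.18, -0.36 and 0.08 in wildtype. Thus 4 of the C362A libraries lay above 0 and replicate 5 lay below all knockout libraries and all but 1 wildtype library. The means were 0.16 ± 0.29 in C362A, -0.10 ± 0.09 in knockout and -0.06 ± 0.21 in wildtype (SD, n = 5 each), and the difference of 0.22 between C362A and wildtype was smaller than the SD within C362A.

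**Figure D3:**
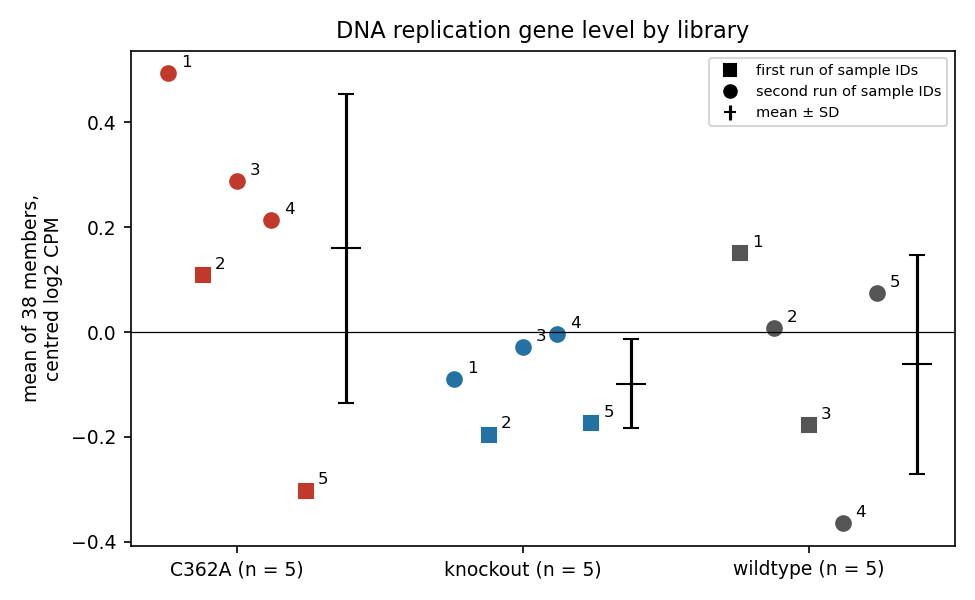
Mean over the 38 genes of the centred log2 CPM in each library, with the mean and SD of each genotype (n = 5) and the run of sample ID numbers by symbol. The C362A libraries spread from -0.30 to 0.49, the knockout libraries from -0.20 to -0.00 and the wildtype libraries from -0.36 to 0.15.

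Without C362A replicate 5, 18 of the 38 genes were called higher in C362A than in wildtype, against 4.29% of all genes. Calls were at an adjusted p under 0.05 by edgeR, and the median log2 fold change was 0.31. That library was singled out by its low level in these same genes, so the calls describe its weight only. Those 18 had log2 fold changes of 0.24 to 0.59 and adjusted p-values of 0.0187 to 0.0464. They included all 6 MCM helicase genes, 4 of 7 polymerase and primase genes, 2 of 3 nucleotide supply genes, both Okazaki fragment genes, 2 of 4 genes of chromatin assembly and the fork, 1 of 4 licensing genes, 1 of 6 clamp and loader genes and 0 of 6 helicase activation genes. The 4 remaining C362A libraries lay above all 5 wildtype libraries in 12 genes, against 4.91% of all genes. Leaving out C362A replicate 1, the highest library, had the opposite effect: 0 were called, 35 of 38 values stayed above 0 and the median was 0.12.

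**Figure D4:**
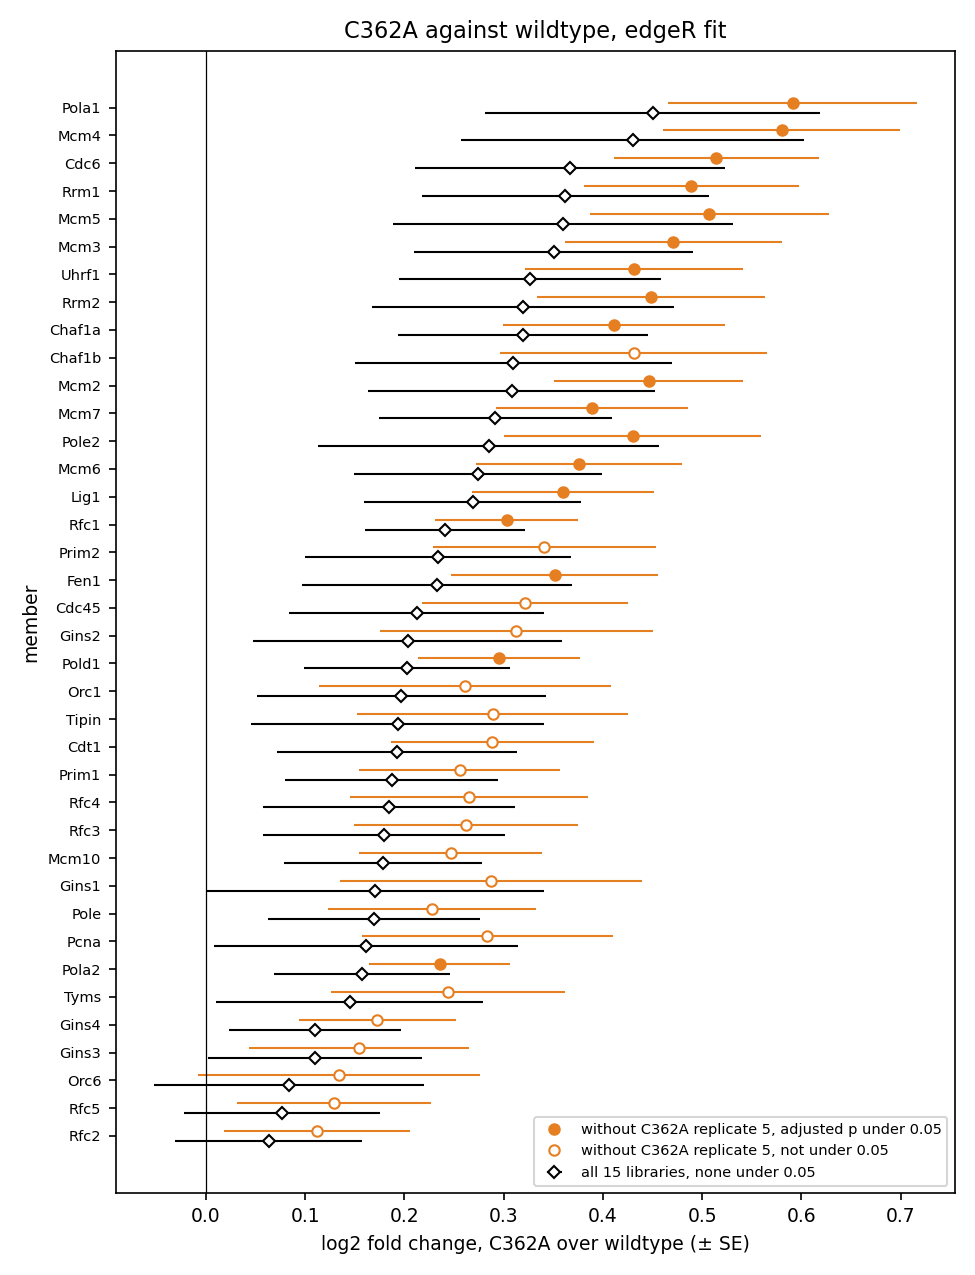
Log2 fold change of C362A over wildtype with its SE for each of the 38 genes, from the edgeR fit of all 15 libraries (open diamonds, 0 called) and without C362A replicate 5 (circles, filled where the adjusted p is under 0.05). Every diamond lies above 0, and 18 of the 38 circles are filled.

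For each role the gene with the smallest unadjusted p in C362A against wildtype is given by library, whether or not it passed. Among the licensing genes this was Cdc6 (Entrez 23834, chr11:98907709-98923942), whose ATPase loads the helicase ring; all gene coordinates are RefSeq's on GRCm38.p6. Cdc6 had 25.9, 20.1, 22.8, 22.5 and 11.8 CPM in C362A, against 16.9, 15.6, 16.9, 17.6 and 15.3 CPM in knockout and 16.6, 16.8, 14.1, 13.3 and 19.02 CPM in wildtype. C362A replicates 1 to 4 lay above all 10 others, and C362A replicate 5 was the lowest of the 15. The log2 fold change over wildtype was 0.37 (SE 0.16, adjusted p = 0.293 by edgeR). Without C362A replicate 5 it was 0.51 (SE 0.10, adjusted p = 0.0187, range over 25 alternatives 0.0187 to 1). Orc1, the ATPase subunit of the origin recognition complex, Orc6, its smallest subunit, and Cdt1, the partner of Cdc6 in loading, had log2 fold changes of 0.20, 0.08 and 0.19 and were not called with or without that library.

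The MCM genes, which encode the ring of the replicative helicase, were called in 6 of 6 cases without C362A replicate 5 and in 0 of 6 with it. Mcm3 (Entrez 17215, chr1:20802966-20820312) had 217, 165, 195, 177 and 113 CPM in C362A, against 130.2, 122, 137, 142 and 133 CPM in knockout and 164.5, 140.2, 131, 102.5 and 141.5 CPM in wildtype. Its C362A replicates 1 to 4 lay above every knockout and wildtype library, replicate 2 only just above wildtype replicate 1, and replicate 5 lay below all but 1 wildtype library. Mcm3 had a log2 fold change over wildtype of 0.35 (SE 0.14, adjusted p = 0.285), and without C362A replicate 5 it was 0.47 (SE 0.11, adjusted p = 0.0237, range over 25 alternatives 0.00957 to 1). Mcm2, Mcm4, Mcm5, Mcm6 and Mcm7 had log2 fold changes over wildtype of 0.31, 0.43, 0.36, 0.27 and 0.29, and all 5 were called without C362A replicate 5, at 0.45, 0.58, 0.51, 0.38 and 0.39.

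Mcm6, the most abundant of the 38, shows the pattern on the deepest counts. It had 401, 309.6, 355, 335 and 231 CPM in C362A, against 269, 258, 283, 300.5 and 247 CPM in knockout and 306, 277, 260.1, 210.2 and 297 CPM in wildtype. C362A replicate 2 exceeded the highest wildtype library by a narrow margin, and C362A replicate 5 lay below every knockout library. Mcm4 had 206, 158, 206, 197 and 97.1 CPM in C362A, against 126, 120.1, 134, 135.5 and 121 CPM in knockout and 148.5, 143, 112, 93.7 and 144 CPM in wildtype. In Mcm4 the 4 upper C362A libraries stood clear of all others. Mcm6 and Mcm4 were chosen for this display after their values were seen.

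Of the helicase activation genes, Mcm10 (Entrez 70024, chr2:4990724-5012791), which encodes an initiation factor of the helicase, had the smallest p. It had 60.8, 48.6, 50.7, 47.9 and 40.0 CPM in C362A, against 42.1, 39.2, 44.2, 42.4 and 39.8 CPM in knockout and 49.5, 45.9, 42.7, 35.4 and 45.6 CPM in wildtype. Wildtype replicate 1 lay above C362A replicates 2 and 4, so the groups overlapped even without C362A replicate 5. Its log2 fold change over wildtype was 0.18 (SE 0.10, adjusted p = 0.367), and without C362A replicate 5 it was 0.25 (SE 0.09, adjusted p = 0.0852, range over 25 alternatives 0.0794 to 1). It was 0.10 without C362A replicate 1 and also 0.10 without wildtype replicate 4. Cdc45, which joins MCM and GINS in the working helicase, and the GINS subunit genes Gins1, Gins2, Gins3 and Gins4 had log2 fold changes over wildtype of 0.21, 0.17, 0.20, 0.11 and 0.11, and none was called without that library either.

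Pola1 (Entrez 18968, chrX:93304766-93632387), which encodes the catalytic subunit of polymerase alpha, had the largest fold change of the 38. Pola1 had 59.3, 50.5, 62.2, 64.6 and 31.8 CPM in C362A, against 37.6, 39.2, 48.2, 40.8 and 40.8 CPM in knockout and 42.3, 45.7, 34.0, 28.5 and 45.9 CPM in wildtype. C362A replicates 1 to 4 exceeded all 10 other libraries, and C362A replicate 5 exceeded only wildtype replicate 4. Over wildtype its log2 fold change was 0.45 (SE 0.17, adjusted p = 0.285), and without C362A replicate 5 it was 0.59 (SE 0.13, adjusted p = 0.0194, range over 25 alternatives 0.0194 to 1).

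Among the other polymerase genes, 3 were called without that library: Pola2, the regulatory subunit of polymerase alpha, at 0.24, Pole2, a subunit of the leading-strand polymerase epsilon, at 0.43, and Pold1, the catalytic subunit of polymerase delta, at 0.30. Prim1 and Prim2, the primase subunits, and Pole, the catalytic subunit of polymerase epsilon, were not called, at 0.26, 0.34 and 0.23. With all 15 libraries the log2 fold changes over wildtype were 0.16 for Pola2, 0.28 for Pole2, 0.20 for Pold1, 0.19 for Prim1, 0.23 for Prim2 and 0.17 for Pole. Pole had 42.8, 43.0, 41.1, 43.4 and 34.2 CPM in C362A, against 34.7, 34.3, 36.4, 33.8 and 42.2 CPM in knockout and 42.3, 38.3, 30.9, 29.2 and 41.2 CPM in wildtype, so its groups overlapped.

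In the clamp and loader group Rfc1 (Entrez 19687, chr5:65261852-65338617), the large subunit of the clamp loader, had the smallest p of all 38 genes. Rfc1 had 114, 104, 114, 115 and 88.5 CPM in C362A, against 88.6, 90.8, 95.6, 88.8 and 93.1 CPM in knockout and 102, 89.3, 85.3, 79.1 and 97.8 CPM in wildtype. C362A replicates 1 to 4 lay above all other libraries, with C362A replicate 2 close to wildtype replicate 1, and C362A replicate 5 lay below every knockout library and above wildtype replicates 3 and 4. The log2 fold change over wildtype was 0.24 (SE 0.08, adjusted p = 0.285), and without C362A replicate 5 it was 0.30 (SE 0.07, adjusted p = 0.0260, range over 25 alternatives 0.0213 to 1). Pcna, the clamp itself, and the small loader subunits Rfc2, Rfc3, Rfc4 and Rfc5 had log2 fold changes over wildtype of 0.16, 0.06, 0.18, 0.18 and 0.08, and none was called with or without that library.

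Nucleotide supply was led by Rrm1 (Entrez 20133, chr7:102441695-102469771), the large subunit of ribonucleotide reductase. Rrm1 had 284, 214, 257, 256 and 147 CPM in C362A, against 181, 175, 197, 190.3 and 178 CPM in knockout and 207.5, 184, 171, 135 and 204 CPM in wildtype. C362A replicates 1 to 4 exceeded every knockout and wildtype library, and C362A replicate 5 exceeded only wildtype replicate 4. For Rrm1 the log2 fold change over wildtype was 0.36 (SE 0.14, adjusted p = 0.285), and without C362A replicate 5 it was 0.49 (SE 0.11, adjusted p = 0.0209, range over 25 alternatives 0.0121 to 1). Rrm2, the small subunit that limits the enzyme in S phase, had a log2 fold change over wildtype of 0.32 and was called without that library at 0.45. Tyms, the thymidylate synthase, had 0.14 and was not called.

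Of the Okazaki fragment genes Lig1 (Entrez 16881, chr7:13277175-13311426), the ligase that seals the fragments, had the smaller p. Lig1 had 169, 130.5, 153, 140.0 and 103 CPM in C362A, against 110.3, 105, 119, 121 and 114 CPM in knockout and 134, 120.2, 112, 96.2 and 116 CPM in wildtype. Here wildtype replicate 1 lay above C362A replicate 2, so the 4 C362A libraries without replicate 5 still overlapped wildtype, though not knockout. The log2 fold change over wildtype was 0.27 (SE 0.11, adjusted p = 0.288), and without C362A replicate 5 it was 0.36 (SE 0.09, adjusted p = 0.0312, range over 25 alternatives 0.0135 to 1). Fen1, the flap endonuclease, had a log2 fold change over wildtype of 0.23, and was called without that library at 0.35.

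Chaf1a (Entrez 27221, chr17:56040416-56068026), the large subunit of the CAF-1 histone chaperone, led the chromatin and fork group. Chaf1a had 116, 81.7, 94.2, 90.2 and 66.2 CPM in C362A, against 71.5, 64.1, 71.9, 76.2 and 66.5 CPM in knockout and 84.8, 72.4, 65.3, 56.6 and 79.7 CPM in wildtype. C362A replicate 2 again lay below wildtype replicate 1 and above all knockout libraries. The log2 fold change over wildtype was 0.32 (SE 0.13, adjusted p = 0.285), and without C362A replicate 5 it was 0.41 (SE 0.11, adjusted p = 0.0364, range over 25 alternatives 0.0212 to 1), whereas without C362A replicate 1 it was 0.21. Uhrf1, which guides maintenance methylation to hemimethylated DNA, had 0.33 and was called without that library at 0.43. Chaf1b, the middle subunit of CAF-1, and Tipin, a fork protection factor, had 0.31 and 0.19 and were not called.

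No difference between knockout and wildtype intestine passed the test in any of these genes. Log2 fold changes ran from -0.18 for Cdt1 to 0.07 for Pola1, with a median of -0.05 beside -0.00 over all genes, and 7 of 38 lay above 0, against 48.2% of all genes. By edgeR 0 of 38 were called, at an adjusted p above 0.99 for each, while 0.0381% of all genes were called. At an unadjusted p under 0.05 in either direction there were 0 of 38, against 2.43% of all genes, and DESeq2 and limma-voom also called 0. The median was -0.11 without wildtype replicate 4 and 0.00 without wildtype replicate 1. The direction also turned with the run of sample ID numbers, with a median of -0.18 and 4 of 38 above 0 in the first run, and a median of 0.05 and 30 of 38 above 0 in the second. Cdt1 averaged 62.7 ± 5.41 CPM in knockout, against 71.1 ± 10.02 CPM in wildtype, and Pola1 41.3 ± 4.08 CPM against 39.3 ± 7.73 CPM (SD, n = 5 each). The 5 knockout libraries lay closer together than the other groups, with a member mean SD of 0.09.

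Set against knockout, C362A again had 38 of 38 log2 fold changes above 0, against 53.2% of all genes. This comparison shares its C362A libraries with the one against wildtype and is not a separate observation of them. The log2 fold changes ran from 0.07 for Gins3 to 0.44 for Mcm4, with a median of 0.28 beside 0.01 over all genes. By edgeR 0 of 38 were called, with adjusted p-values from 0.317 to 0.788, against 0.0109% of all genes, and 22 of 38 were higher at an unadjusted p under 0.05, against 6.49% of all genes. Those 22 became 5 without C362A replicate 1 (4.31% of all genes), 11 without C362A replicate 3 (4.09%), 14 without C362A replicate 4 (4.5%) and 10 without knockout replicate 2 (4.28%). No gene had all 5 C362A libraries above the 5 knockout libraries, which held for 1.11% of all genes.

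Without C362A replicate 5, 19 of 38 were higher in C362A than in knockout at an adjusted p under 0.05 by edgeR, against 1.78% of all genes, with a median log2 fold change of 0.37. These were Cdc6, Cdt1, Mcm2, Mcm3, Mcm4, Mcm5, Mcm7, Cdc45, Pola1, Pola2, Pole2, Pold1, Rfc1, Rrm1, Rrm2, Lig1, Chaf1a, Chaf1b and Uhrf1, at log2 fold changes of 0.29 to 0.59 and adjusted p-values of 0.0383 to 0.0460. The 4 C362A libraries lay above all 5 knockout libraries in 26 of 38 genes, against 6.34% of all genes. Here too, the library left out was singled out by its low level in these same genes. The calls and the count of 26 thus describe its weight only.

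Between C362A and wildtype, the member mean difference changed sign across the 2 runs of sample ID numbers, a split chosen after the data were seen. The interaction of genotype with run, given below, passed in 0 of 38 genes, so the change of sign is a description only. In the first run, with 2 libraries a genotype, the member mean was 0.08 lower in C362A than in wildtype (-0.10 against -0.01), and 7 of 38 log2 fold changes lay above 0, with a median of -0.09. In the second, with 3 libraries a genotype, it was 0.43 higher (0.33 against -0.09), all 38 lay above 0 with a median of 0.41, and 19 of 38 were called higher by edgeR, against 5.07% of all genes. Between C362A and knockout the mean difference was 0.09 in the first run and 0.37 in the second, where 5 of 38 were called higher, against 0.665% of all genes. Between knockout and wildtype it was -0.17 in the first run (-0.18 against -0.01) and 0.05 in the second (-0.04 against -0.09). There 0 of 38 were called in either run, and in the first run 3 of 38 were lower with an unadjusted p under 0.05, against 3.84% of all genes.

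The interaction of genotype with run, for C362A against wildtype, was positive in 38 of 38 genes, with a median of 0.50 and values of 0.14 for Gins3 to 0.71 for Mcm4 on the log2 scale. By edgeR 0 of 38 passed at an adjusted p under 0.05, with a lowest adjusted p of 0.138 for Fen1, while 1.42% of all genes passed. At an unadjusted p under 0.05 there were 25 of 38 with a larger value in the second run, against 6.48% of all genes. The first run holds C362A replicate 5 and the second wildtype replicate 4, so the run, these libraries and the difference cannot be told apart. For knockout against wildtype the interaction was positive in 35 of 38 genes, with a median of 0.24, a lowest adjusted p of 0.352 and 0 called by edgeR.

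Other lists of replication and cell cycle genes had medians of 0.08 to 0.28 in C362A against wildtype. Among 45 other replication factors, 39 were above 0 with a median of 0.14, 0 were called, 9 were higher at an unadjusted p under 0.05 (8.08% of all genes), and 8 were called higher without C362A replicate 5 (4.29% of all genes). Top1, the topoisomerase that relieves torsion ahead of the fork, averaged 188 ± 29.5 CPM in C362A, against 155 ± 14.9 CPM in wildtype (log2 fold change 0.27, SE 0.10, adjusted p = 0.285 by edgeR). Mtbp, an origin firing factor, averaged 27.8 ± 3.61 against 23.2 ± 3.60 CPM (0.26, SE 0.11, adjusted p = 0.288).

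The list of E2F and G1/S regulators, which holds both activators and inhibitors, had a median nearer 0. Its log2 fold changes over wildtype ran from -0.32 for Cdkn1c to 0.29 for E2f7. Of 29 genes of the E2F and G1/S list, 23 were above 0 with a median of 0.08, 0 were called, 2 lay higher and 1 lay lower by the unadjusted p under 0.05, against 8.08% and 7.8% of all genes, and 1 was called higher without C362A replicate 5, against 4.29%. All 3 counts lie below the shares of all genes. The called gene was Ccnd1, the G1 cyclin D1, at 175 ± 11.9 CPM in C362A, against 147 ± 14.7 CPM in wildtype (0.25, SE 0.08, adjusted p = 0.285 by edgeR). The lower gene was Cdkn1c, the cyclin-dependent kinase inhibitor p57, at 679 ± 96.8 against 844.5 ± 179.5 CPM (-0.32, SE 0.13, adjusted p = 0.285).

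Of 18 replication stress genes, 14 were above 0 with a median of 0.16, 0 were called, 7 were higher at an unadjusted p under 0.05, against 8.08% of all genes, and 6 were called higher without C362A replicate 5, against 4.29%. Rad18, a ubiquitin ligase of translesion synthesis, averaged 16.3 ± 3.60 CPM in C362A, against 12.2 ± 2.17 CPM in wildtype (0.42, SE 0.15, adjusted p = 0.285 by edgeR), and Fancd2, of the Fanconi anaemia pathway, averaged 18.7 ± 1.11 against 15.7 ± 1.84 CPM (0.25, SE 0.10). Of 22 mitosis genes, 22 were above 0 with a median of 0.28, 0 were called, 15 were higher at an unadjusted p under 0.05 beside the same 8.08% of all genes, and 12 were called higher without C362A replicate 5 beside the same 4.29%. Bub1b, of the spindle checkpoint, averaged 137 ± 28.4 CPM in C362A, against 104 ± 16.2 CPM in wildtype (0.40, SE 0.13), and Cenpe, a kinetochore motor, 69.2 ± 5.92 against 57.1 ± 7.59 CPM (0.28, SE 0.09), both at an adjusted p of 0.285 by edgeR.

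On average, the listed enterocyte genes ran the other way across the same libraries. The mean of 19 enterocyte genes, as centred log2 CPM, was -0.89, -0.35, -0.39, -0.35 and 0.01 in C362A replicates 1 to 5, 0.26, 0.39, 0.36, 0.12 and 0.24 in knockout, and -0.44, 0.14, 0.42, 0.79 and -0.30 in wildtype. C362A replicate 1 was both the lowest in enterocyte genes and the highest in replication genes, and wildtype replicate 4 the reverse. Their summed level was 8711 to 18770 CPM in C362A, 19680 to 23550 CPM in knockout and 12040 to 35540 CPM in wildtype, and no listed enterocyte gene was at 0 in all libraries.

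Among the 19 enterocyte genes, the C362A over wildtype log2 fold change was 0.09 for Sis, which averaged 2.7 CPM in wildtype. It was -0.08 for Cdx2 and -0.07 for Krt20. In C362A against wildtype, 18 of the 19 enterocyte genes, all but Sis, lay below 0, with a median log2 fold change of -0.58. By edgeR 0 were called, 12 were lower at an unadjusted p under 0.05, against 7.8% of all genes, and 4 were called lower without C362A replicate 5, against 5.47% of all genes. Rbp2, the intestinal retinol-binding protein, averaged 462 ± 148 CPM in C362A, against 930.0 ± 579 CPM in wildtype (-1.01, SE 0.35), and Mep1a, a brush border protease, 185 ± 29.9 against 239.8 ± 52.7 CPM (-0.38, SE 0.13), both at an adjusted p of 0.285 by edgeR. With the enterocyte mean as a covariate, the median log2 fold change of the 38 replication genes was -0.04 for C362A against wildtype, with 13 of 38 above 0 and 1 lower at an unadjusted p under 0.05, against 1.27% of all genes. For C362A against knockout it was -0.09, with 5 of 38 above 0 and 3 lower at that level, against 1.9% of all genes. For knockout against wildtype it was 0.04, with 28 of 38 above 0. The share of enterocytes was not measured, and its part in the differences was not tested.

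**Figure D5:**
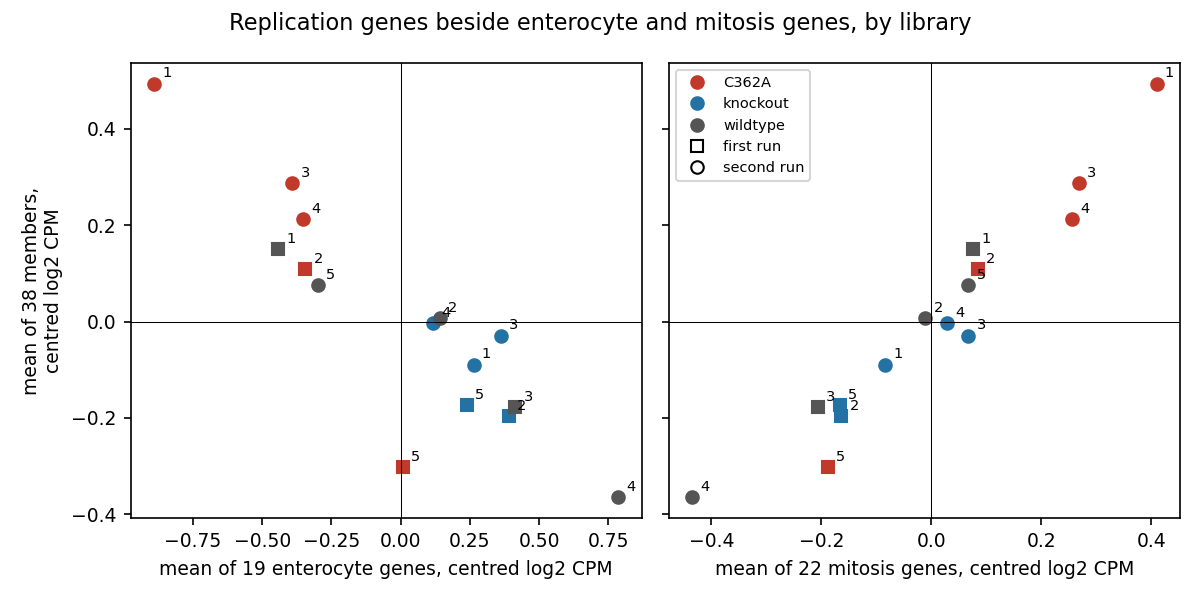
Mean centred log2 CPM of the 38 replication genes (vertical axis) against that of 19 enterocyte genes (left) and 22 mitosis genes (right), 1 point per library, coloured by genotype and numbered by replicate. C362A replicate 1 lies at -0.89 for enterocyte and 0.49 for replication genes, and wildtype replicate 4 at 0.79 and -0.36.

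In C362A against wildtype, the median log2 fold changes of the other cell type lists were smaller in size than the enterocyte median. The 10 stem and progenitor genes summed to 411 to 441 CPM in C362A, 404 to 428 CPM in knockout and 406 to 436 CPM in wildtype, with 7 of 10 above 0 in C362A against wildtype, a median of 0.02, and 0 called with or without C362A replicate 5. All 10 smooth muscle and all 10 fibroblast genes were above 0 in C362A against wildtype, with a median of 0.23 in each list. Of each list 6 were higher at an unadjusted p under 0.05, against 8.08% of all genes. Without C362A replicate 5, 4 of each were called higher, against 4.29%. In knockout against wildtype, 10 smooth muscle and 7 fibroblast genes were above 0, with medians of 0.14 and 0.04. In C362A against knockout the medians were 0.08 for smooth muscle and 0.22 for fibroblast genes. Their summed levels were 5458 to 7161 and 6301 to 8990 CPM in C362A, 5508 to 6563 and 5813 to 8677 CPM in knockout, and 4854 to 5948 and 5239 to 8037 CPM in wildtype.

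Of 10 macrophage genes 9 were above 0 in C362A against wildtype, with a median of 0.19. Adgre1, which encodes F4/80, was the 1 called, where edgeR called 0.0817% of all genes. Adgre1 averaged 14.3 ± 1.42 CPM in C362A and 12.4 ± 2.67 CPM in knockout, against 8.52 ± 0.853 CPM in wildtype. Its C362A value over wildtype was 0.75 (SE 0.13, adjusted p = 0.0361 by edgeR, range over 25 alternatives 0.000138 to 1). Knockout over wildtype was 0.54 (adjusted p = 0.8, lowest over 25 alternatives 0.0480), and C362A over knockout 0.21 (adjusted p = 0.462). The unadjusted edgeR p fell below 0.05 for 5 macrophage genes, each raised in C362A over wildtype, beside 8.08% of all genes. Calls without C362A replicate 5 numbered 3, beside 4.29%. The macrophage genes summed to 279 to 347 CPM in C362A, 256 to 329 CPM in knockout and 218 to 333 CPM in wildtype. Of 11 erythroid genes 6 were above 0 in C362A against wildtype, with a median of 0.22 and 0 called. In knockout against wildtype 11 of 11 were above 0, against 48.2% of all genes, with a median of 0.26. In C362A against knockout 1 of 11 was above 0, against 53.2% of all genes, with a median of -0.42. In both, 0 were called. The erythroid genes summed to 1358 to 3747 CPM in C362A, 1580 to 4598 CPM in knockout and 2030 to 5425 CPM in wildtype. No gene of these lists was at 0 in all libraries, and their part in the replication result was not tested.

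Over the 15 libraries the levels of the 38 genes varied together. Their coefficient of variation was 10.2% to 25.1%, with a median of 17.7%. Among the 703 pairs of genes, Pearson's r of log2 CPM over the 15 libraries had a median of 0.886 and ran from 0.374 to 0.992, a description over libraries that share depth, composition and genotype. Against the mean of the other 37, Mcm6 and Rrm2 followed most closely, at 0.984 each, and Orc1, Pole and Gins3 least, at 0.754, 0.755 and 0.772. Outside the list the 5 genes most like the member mean were Dkc1 and Rpa1 (r of 0.984 each), Nuf2 (0.981), Prpf19 (0.980) and Bub3 (0.977).

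Some of the transcript sequence is shared with neighbours or copies. Reads were 50 bases long, single-end and without strand, and 9 of the 38 genes overlap a protein-coding gene. Of windows of 50 bases along the annotated transcripts, 76.7% in Fen1 also occurred in a transcript of another gene (Gm10143 and Tmem258), 65.4% in Gins2 (Gse1), 49.7% in Chaf1a (mostly Ubxn6), 23.3% in Mcm7 (Gm5487 and Ap4m1 among them), 19.1% in Pcna (Pcna-ps2) and 16.0% in Rfc2. The values of these 6 genes are uncertain for that reason, since unique alignments and overlapping models can lower or mix their counts. Reads were not examined, so the size of any such loss or mixing was not measured. In 14 genes the share was over 5%, and in 8 it was 0, Mcm3 and Mcm10 among them. The 38 genes lie on 15 chromosomes, 7 of them on chromosome 5 and 6 on chromosome 8.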

How the data were processed

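PolyA RNA of E16.5 mouse intestine was sequenced in 15 libraries, 5 per Casp8 genotype, as single-end reads of 50 bases made with a TruSeq v2 kit, which does not mark the strand, per the labels' protocols. Reads were aligned with GSNAP to GRCm38, per the submitters' processing notes; neither aligner version nor annotation is given in the sources used. Per the file headers, the deposited counts are reads that align uniquely to a gene model, so genes with near-identical copies lose reads. The deposited RPKM values were adjusted by the authors with a size factor per library, per the file headers, and were used here only for levels between genes.

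Groups were taken from the labels, and libraries were numbered within a group in accession order, which pairs nothing. Counts were tested with edgeR 4.0.16 (R 4.3.3): TMM scaling, filterByExpr (at least 10 counts, total at least 15), robust quasi-likelihood fit of all 15 libraries with a mean per genotype, and Benjamini-Hochberg adjustment over 18370 genes, called under 0.05. The procedure was tested on simulated data, with planted changes larger than those of the 38 genes and with genes drawn independently of each other. That simulation does not measure the power for changes as small as these. Centred log2 CPM used a prior count of 2. Alternatives were RLE factors, no filter, at least 5 CPM in 5 libraries, DESeq2 1.42.0, limma-voom (limma 3.58.1), only the 2 genotypes compared, a block for runs of sample ID numbers, an enterocyte covariate, a threshold of 0.01, and leaving out each library in turn. Fits of each run alone and the interaction of genotype with run were added after the data were seen. The 38 genes and the gene lists were chosen with earlier results of these data known. Values by library are given for called genes and, in each role, for the gene with the smallest p in C362A against wildtype. Mcm6, Mcm4 and Pole, outside this rule, are also given by library. From other lists, called genes or the 2 smallest p are named. Gene names, coordinates and promoters are RefSeq's on GRCm38.p6, and shared sequence was searched in GENCODE transcripts.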

Additional observations from a re-analysis of the deposited data

Results flagged for a closer look

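In 117 sets of 5 libraries (each of the 38 genes, and their mean, in each genotype), a library far from the other 4 was found in 2, where chance alone flags about 1 in 20. Pole, the catalytic subunit of polymerase epsilon, had 34.2 CPM in C362A replicate 5, below the 41.1 to 43.4 CPM of the other C362A libraries. Pole2, a smaller subunit of the same polymerase, had 13.1 CPM in knockout replicate 2, below the 15.4 to 15.5 CPM of the other knockout libraries. The cause of either value was not tested.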

How the results depend on the processing

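With 0 of 38 genes called in each comparison as the base, 0 were also called with RLE factors, no filter, the filter of 5 CPM, DESeq2, limma-voom, fits of only the 2 genotypes, the block for sample ID runs, the enterocyte covariate and a threshold of 0.01. For C362A against wildtype, 18 were called without C362A replicate 5 and 19 in the second run of sample ID numbers alone; for C362A against knockout, 19 and 5. Over fits that each left out 1 library, the calls ranged from 0 to 18, 0 to 19 and 0 to 0 for C362A against wildtype, C362A against knockout and knockout against wildtype, and the median log2 fold changes from 0.12 to 0.31, 0.19 to 0.37 and -0.11 to 0.00. The median changed sign in the first run alone for C362A against wildtype (-0.0904), in the second run alone for knockout against wildtype (0.0539), without wildtype replicate 1 for knockout against wildtype (0.00153), and with the enterocyte covariate in all 3 comparisons (C362A against wildtype -0.0399, knockout against wildtype 0.0442, C362A against knockout -0.0867). In the first run alone these C362A against wildtype values turned negative: Chaf1a -0.0253, Rrm1 -0.0715, Mcm3 -0.0903, Lig1 -0.0735 and Mcm10 -0.0612. With the enterocyte covariate Mcm10 was at -0.0385 against wildtype, and against knockout Pola1 was at -0.0219, Chaf1a -0.0500, Rrm1 -0.0914, Mcm3 -0.0348, Lig1 -0.0112, Cdc6 -0.0778 and Mcm10 -0.0324. The causes were not tested. No paired analysis was possible because the labels give no replicate numbers. Each gene had at least 217 counts in a library; counting error and the spread between libraries were not separated.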
